A study of Mus musculus with 10 samples.

Results

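The comparison described here sets macrophages given 10 nM Kdo2-lipid A for 1 h against macrophages given 0.03 nM of the same ligand for 1 h. It holds 2 libraries against 2, taken from the columns for those doses at that time and paired by experiment number, out of 10 libraries in the series. Of the 23284 genes in the count table, 12918 had enough counts to be tested. All cells were grown from C57BL/6J mouse bone marrow in recombinant macrophage colony-stimulating factor (M-CSF), with no other genotype or agent in the labels, and polyadenylated RNA was sequenced. The groups beside the 2 compared are 10 nM for 2 h, 0.03 nM for 2 h and untreated cells placed at 0 h, also with 2 libraries each, 1 from each of 2 experiments that the labels call independent. The p-values measure the spread of all 10 libraries that remains once group and experiment are fitted. The labels do not give the number of mice behind a culture, so a spread between mice cannot be read from them. The comparison asks which transcripts distinguish a high from a low dose of the ligand within the first hour, at equal time in culture.

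Kdo2-lipid A is a short form of bacterial lipopolysaccharide, and it engages Toll-like receptor 4 (TLR4) with its partners MD-2 and CD14. The engaged receptor signals through the adaptors MyD88 and TRIF to the transcription factors NF-kB, AP-1 and IRF3, and to MAP kinases. The first genes to respond are induced without new protein synthesis. They encode transcription factors, cytokines, chemokines and inhibitors of the same pathway. Interferon beta, made through TRIF, acts back on the cells and drives a later set of interferon-stimulated genes.

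The 4 libraries held 39107116 and 42167096 counts at 10 nM, against 36249662 and 36679774 at 0.03 nM (experiment 1, then experiment 2, the order kept below). Levels are CPM, the reads of a gene relative to 1e6 reads of its library, scaled with edgeR's trimmed mean method (TMM), with factors of 0.885 and 0.897 at 10 nM against 1.15 and 1.14 at 0.03 nM. Differences are log2, 10 nM minus 0.03 nM, ± SE, from one edgeR quasi-likelihood model with the experiment as a block. Calls used an adjusted p (Benjamini-Hochberg, 12918 genes) below 0.05. The 8 macrophage markers summed to 32500 and 31400 CPM at 10 nM against 25400 and 23800 CPM at 0.03 nM, or to 29400 and 28100 CPM against 24800 and 23100 CPM with Cd14 left out. Relative to library totals the 8 summed to 28800 and 28200 against 29100 and 27100, so the order in experiment 1 depends on the scaling. Lyz2 alone held 15000 and 14500 against 16300 and 14500 on that scale. There Csf1r, Cd68, Itgam, Mertk and Fcgr1 were lower at 10 nM in both experiments, and Cd14 was higher. The sum thus does not stand for each marker. In short panels, markers of neutrophils, dendritic, B, T, natural killer, erythroid and mast cells each summed to at most 14.9 CPM in any of the 4 libraries. A panel of 8 stromal and endothelial markers summed to 44.4 and 78.9 CPM against 46.7 and 74.5 CPM. No panel marker in the table was at 0 in all 4 libraries. Longer lists for some of these cell types summed to more. The 10 tested dendritic markers summed to 213.1 and 232.9 CPM at 10 nM against 180.1 and 259.7 CPM at 0.03 nM. The 10 tested neutrophil markers reached 30.65 CPM, in the 10 nM library of experiment 1. The 12 tested stromal and endothelial markers reached 139.4 CPM, in the 10 nM library of experiment 2. In RNA from a whole culture, fewer cells making a transcript and less transcript per cell cannot be told apart. Responsive genes were shifted between the experiments at the low dose. Of the genes called at least 2-fold higher at 10 nM, 614 of 838 had more CPM in experiment 2 than in experiment 1 at 0.03 nM. Their median log2 gap, experiment 2 minus experiment 1, was 0.185. At 10 nM, 412 of the 838 had more CPM in experiment 2, with a gap of -0.00257. Over all 12918 genes tested, 6174 had more in experiment 2 at 0.03 nM and 5891 at 10 nM.

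At 10 nM, 2400 genes were higher than at 0.03 nM (18.6% of those tested) and 2336 were lower (18.1%). All 4736 had the same sign in both experiments, which is no separate check, because the calls were made from these same libraries. The rises were larger than the falls at the extremes: 838 genes were at least 2-fold higher and 714 at least 2-fold lower, 394 and 209 passed 4-fold, and 224 and 58 passed 8-fold. The median difference over all genes tested was -0.01, a value that TMM largely sets by construction, as it assumes that most genes do not differ. The near-even split of the calls rests on the same scaling. Values of the groups did not overlap in 2388 of the 2400 higher and 2322 of the 2336 lower genes. Over all genes tested, called or not, 34.8% lay entirely higher at 10 nM and 36.4% entirely lower. The 838 genes raised at least 2-fold took 19.2% of all counts in each 10 nM library, against 4.67% and 5.42% at 0.03 nM, where untreated cells had 3.89% and 4.11%. The 714 genes lowered at least 2-fold took 0.366% and 0.376% of counts at 10 nM against 1.35% and 1.31% at 0.03 nM. Scaling by library totals in place of TMM moved the median of all genes to -0.37 and the calls to 1231 higher and 6762 lower. List counts under that scaling are given below where they turn the balance. Each list count below stands beside the shares over all genes tested, 18.6% higher and 18.1% lower. Genes nearly silent at 0.03 nM were tested only where other libraries had counts, which favours rises among them. In several lists a count of 2 lower genes became 0 or 1 when a library was left out.

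**Figure D1:**
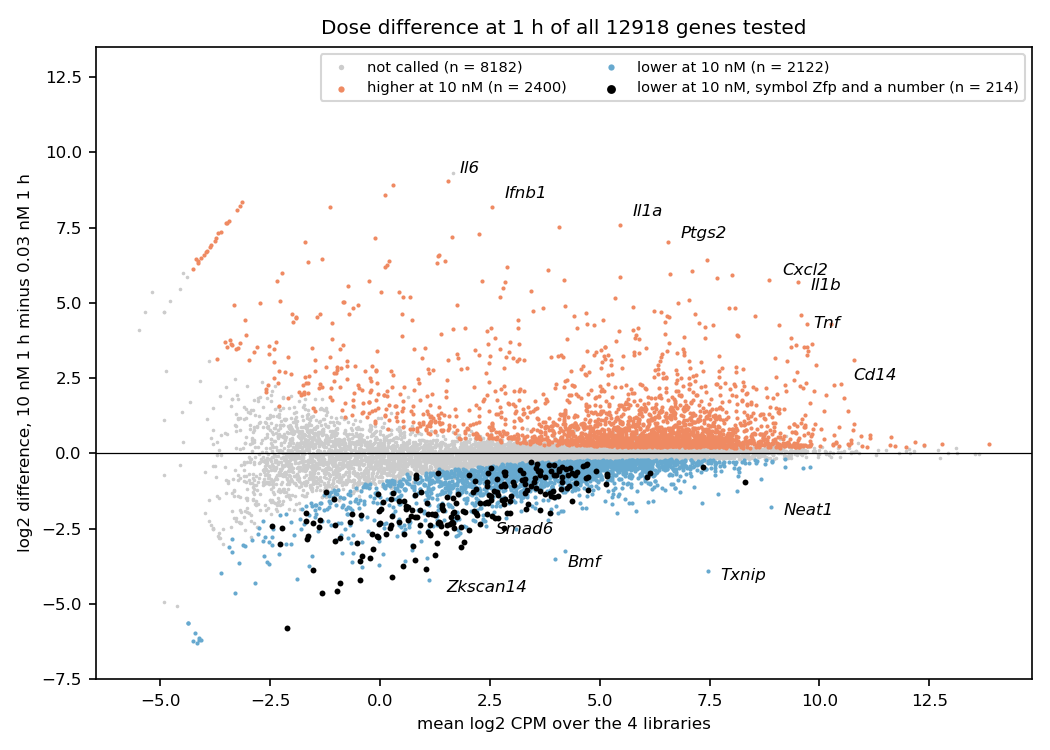
Log2 difference between 10 nM and 0.03 nM at 1 h (vertical axis) against the mean log2 CPM of the 4 libraries (horizontal axis), 1 point per gene. Of 12918 genes, 2400 were called higher and 2336 lower, among them 214 genes with a Zfp symbol and a number, drawn in black.

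Chemokines that attract neutrophils were among the steepest rises. Of 6 tested members of this list, 5 were higher at 10 nM and 0 lower, with a median difference of 3.67. Cxcl2 had 3557 and 3348 CPM at 10 nM against 50.8 and 77.7 CPM at 0.03 nM, 54.8-fold higher (5.78 ± 0.17, edgeR adjusted p = 4.97e-09). Cxcl1 had 832 and 698 CPM at 10 nM against 12.8 and 11.9 CPM at 0.03 nM, and Cxcl3 had 37.3 and 37.8 CPM against 0.458 and 0.958 CPM. All 3 encode ligands of the receptor CXCR2, and in each the doses were far apart in both experiments. Cxcl3 was 52.9-fold higher, or 80-fold with the 0.03 nM 1 h library of experiment 2 left out. Cxcl5 rose less, by 1.61 ± 0.30, and Pf4, a platelet chemokine also made by macrophages, by 0.36 ± 0.11. The call on Pf4 ended when any one of the 4 libraries was left out (edgeR adjusted p from 0.0793 to 0.189), and with library totals its difference was -0.0014.

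The genes Cxcl3 (chr5:91215129-91217116), Cxcl1 (chr5:91320271-91322141) and Cxcl2 (chr5:91332925-91334964) lie on the plus strand of one stretch of chromosome 5 (gene spans on mm9, from the count table). The 200 bases before their start sites, and before those of Il6, Ifnb1 and Nfkbia, are printed 5′ to 3′ from RefSeq, build GRCm38.p6, in gene orientation. These genes are shown because they rose together and each window holds an NF-kB type motif. As they were picked for the motif, its presence in them is no result. The capitals mark GGNNTTTCC on either strand. Overlaps with other motifs were not searched.
Cxcl1 (chr5:90891045-90891244, plus strand): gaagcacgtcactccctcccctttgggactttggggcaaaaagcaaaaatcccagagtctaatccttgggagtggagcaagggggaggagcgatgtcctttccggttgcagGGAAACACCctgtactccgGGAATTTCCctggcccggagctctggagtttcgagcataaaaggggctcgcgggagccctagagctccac
Cxcl2 (chr5:90903699-90903898, plus strand): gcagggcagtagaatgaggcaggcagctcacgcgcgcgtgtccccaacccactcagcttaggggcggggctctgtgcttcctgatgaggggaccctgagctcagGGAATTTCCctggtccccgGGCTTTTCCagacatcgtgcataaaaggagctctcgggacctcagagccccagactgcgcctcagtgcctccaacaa
Cxcl3 (chr5:90785901-90786100, plus strand): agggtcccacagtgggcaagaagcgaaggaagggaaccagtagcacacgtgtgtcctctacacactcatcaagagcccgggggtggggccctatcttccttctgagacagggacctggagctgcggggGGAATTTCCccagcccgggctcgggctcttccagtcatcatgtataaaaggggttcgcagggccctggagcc
Il6 (chr5:30012914-30013113, plus strand): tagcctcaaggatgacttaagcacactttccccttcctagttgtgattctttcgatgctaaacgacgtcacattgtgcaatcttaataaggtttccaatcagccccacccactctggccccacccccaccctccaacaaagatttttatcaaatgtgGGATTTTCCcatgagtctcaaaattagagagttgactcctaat
Ifnb1 (chr4:88522795-88522994, minus strand): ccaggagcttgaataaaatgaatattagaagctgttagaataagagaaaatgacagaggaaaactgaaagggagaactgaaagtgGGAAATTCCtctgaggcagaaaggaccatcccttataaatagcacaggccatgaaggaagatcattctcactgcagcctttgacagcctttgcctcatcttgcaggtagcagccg
Nfkbia (chr12:55492648-55492847, minus strand): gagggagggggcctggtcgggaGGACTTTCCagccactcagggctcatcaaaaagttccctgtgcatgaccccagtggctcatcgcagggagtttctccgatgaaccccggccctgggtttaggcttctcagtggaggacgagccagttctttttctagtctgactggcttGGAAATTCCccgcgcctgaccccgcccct
In Cxcl1 the marked stretches begin 89 and 70 bases before the start site, in Cxcl2 96 and 77 bases before it, and in Cxcl3 72 bases before it. Of 27025 RefSeq windows of this length, 3.95% hold the motif and 0.144% hold it at least 2 times. Many genes that rose lack it, among them Il1a, Il12b and Ptgs2. Of the 20 largest rises, 12 had a window and 6 of these held the motif. Of the 20 largest falls, 17 had a window and 2 held it, and in the panel of 26 genes 8 of 18 windows did. No share is given for all called genes, because RefSeq windows were at hand for 78.6% of the genes tested and 76.1% of those at least 4-fold higher.

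Other chemokines followed, with 15 of 19 tested members higher, 0 lower and a median of 3.49 (3.14 with Ccl17, absent at 0.03 nM, at its lower bound). Ccl4 had 1526 and 1552 CPM at 10 nM against 20.4 and 35.0 CPM at 0.03 nM (5.82 ± 0.19), and its neighbour Ccl3 had 1334 and 1287 CPM against 37.7 and 54.9 CPM (4.84 ± 0.15). Both encode inflammatory chemokines that attract leukocytes, and reads shared between such similar genes cannot be assigned with certainty. The monocyte chemokine Ccl2 rose by 5.84 ± 0.18, and Ccl22, which attracts T cells, by 5.41 ± 0.16. Cxcl10, a ligand of CXCR3, had 1532 and 1422 CPM at 10 nM against 33 and 74.2 CPM at 0.03 nM, 28.4-fold higher (44.7-fold with the 0.03 nM 1 h library of experiment 2 left out). Ccl5 had 215.5 and 248.5 CPM at 10 nM against 15.9 and 49.6 CPM at 0.03 nM, 7.72-fold higher, or 12.9-fold without that library. For both, the low-dose value of experiment 2 was over 2-fold that of experiment 1. With the 4 compared libraries alone in the model, Cxcl10 and Ccl5 kept their sizes but were not called (edgeR adjusted p = 0.102 and 0.176).

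All 20 tested inflammatory cytokine genes were higher at 10 nM, with a median of 5.44 (4.88 with Il33, absent at 0.03 nM, at its lower bound). Members with few or no reads at 0.03 nM, such as Il33, entered the test through other libraries, which favours a rise. Lta, also in the list, had too few counts to be tested. Il6 (chr5:30339701-30346508, mm9), encoding the cytokine that drives the acute-phase response, had 74.8 and 69.1 CPM at 10 nM against 0.0482 and 0.216 CPM at 0.03 nM, from 2 and 9 reads. It was 531-fold higher (9.05 ± 0.24, edgeR adjusted p = 2.02e-09), the largest rise where the mean of the 4 libraries was 1 log2 CPM or more. The fold was 323 with the 0.03 nM 1 h library of experiment 1 left out and 1420 without that of experiment 2. Il12b, a subunit of IL-12 and IL-23, had 234.5 and 222.5 CPM at 10 nM against 1.16 and 1.32 CPM at 0.03 nM (7.52 ± 0.13). Il1a had 597 and 646 CPM against 2.19 and 4.38 CPM (7.59 ± 0.24), and shares 222 of its 1974 exonic bases with an antisense gene. Il1b, the other interleukin 1 gene, had 5176 and 5422 CPM at 10 nM against 71.1 and 142 CPM at 0.03 nM (5.69 ± 0.23). In these 4 genes the lower of the 10 nM values lay far above the higher of the 0.03 nM values.

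Tnf (chr17:35336336-35338941, mm9) had 3835 and 3662 CPM at 10 nM against 130 and 187 CPM at 0.03 nM (4.58 ± 0.15, edgeR adjusted p = 5.85e-09). Tnfsf9 and Tnfsf4, which encode the T cell co-stimulators 4-1BB ligand and OX40 ligand, rose by 6.43 ± 0.13 and 6.38 ± 0.28. Clcf1, a cytokine of the IL-6 family, was 95.2-fold higher (204-fold with the 0.03 nM 1 h library of experiment 2 left out). Per kilobase of exon, mean levels at 10 nM were 3993 CPM for Il1b, 2317 CPM for Tnf and 66.2 CPM for Il6, against 80.3, 97.9 and 0.121 CPM at 0.03 nM. On this scale the mean of Tnf stood above that of Il1b at 0.03 nM and below it at 10 nM. Colony-stimulating and IL-23 genes were close to the detection limit at the low dose. These were chosen after their values were seen. Csf2, encoding GM-CSF, had 906 and 900 reads at 10 nM against 2 and 2 at 0.03 nM, and Il23a had 625 and 802 reads against 2 and 2. Csf3, encoding G-CSF, had 252 reads over the 10 nM libraries against 2 over the 0.03 nM libraries, a ratio of 145 (95% counting interval 39.7 to 1200, covering counting error only). Il33 had 48 reads against 0, at least 18.4-fold higher at a floor of 3 reads over the group.

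Ligands that dampen inflammation or act as growth factors were higher in 10 of 16 tested genes and lower in 0. Il10, the main anti-inflammatory cytokine of macrophages, had 165 and 153 CPM at 10 nM against 5.30 and 9.73 CPM at 0.03 nM (4.43 ± 0.20). Il1rn, the secreted interleukin 1 receptor antagonist, had 237 and 263 CPM against 10.4 and 17.9 CPM (4.17 ± 0.14). Both thus rose beside the cytokines they oppose. Il27 rose by 5.18 ± 0.16 and the stress-induced ligand Gdf15 by 3.74 ± 0.22. Edn1, which encodes the vasoconstrictor endothelin 1, was 41-fold higher, but 24.7-fold with the 0.03 nM 1 h library of experiment 1 left out and 141-fold without that of experiment 2. The epidermal growth factor receptor ligand Areg, chosen after its values were seen, had 564 reads at 10 nM against 2 at 0.03 nM, a ratio of 324 (95% counting interval 89.3 to 2680).

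**Figure D2:**
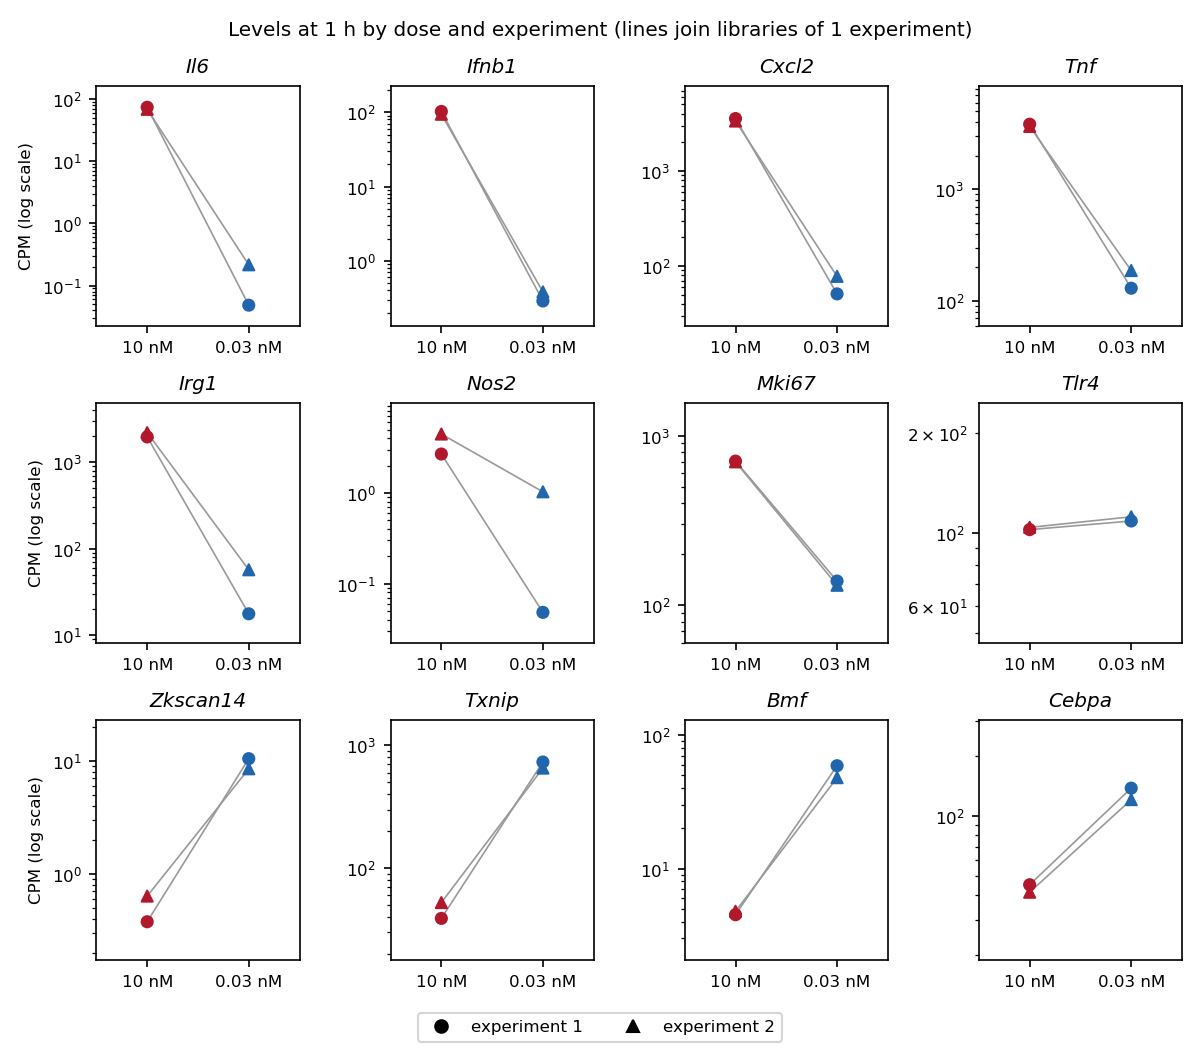
CPM (log scale) of 12 genes in the 10 nM libraries (left in each panel) and the 0.03 nM libraries (right) at 1 h, with 1 symbol per library and lines joining libraries of the same experiment. Il6, Ifnb1, Cxcl2, Tnf and Irg1 lay higher at 10 nM in both experiments, Zkscan14, Txnip, Bmf and Cebpa lower, and Tlr4 differed little.

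Interferon beta itself rose steeply while the genes it is known to drive were divided. Ifnb1 (chr4:88167929-88168698, mm9) had 103 and 94.0 CPM at 10 nM against 0.289 and 0.383 CPM at 0.03 nM (8.19 ± 0.22, edgeR adjusted p = 2.22e-09). The 4 tested interferon alpha genes, which share sequence, were also called higher, a grouping by symbol made after the values were seen. Their median level was 0.783 CPM at 10 nM against 0.012 CPM at 0.03 nM. They thus passed the count filter through other libraries than those at 0.03 nM and 1 h, which favours a rise. Ifna4 had 49 reads at 10 nM against 0 at 0.03 nM, at least 18.8-fold higher. Of the 35 tested genes in the list of interferon beta and interferon-stimulated genes, 15 were higher and 2 lower at 1 h (12 and 6 with library totals). The median difference was 0.34 (-0.02 with library totals). The counts were 25 higher and 0 lower (median 0.53) with the 0.03 nM 1 h library of experiment 2 left out, and 12 and 5 (median 0.07) with that of experiment 1 left out. They were 12 and 1 with the 10 nM 1 h library of experiment 1 left out, 13 and 0 with that of experiment 2 left out, 12 and 0 with no experiment block, and 8 and 0 with the 4 libraries alone. Called members included Gbp5, a guanylate-binding protein gene (4.53 ± 0.19), Ifih1, which encodes the RNA sensor MDA5 (2.30 ± 0.17, not called with the 4 libraries alone, edgeR adjusted p = 0.0635), and Gbp2 (1.73 ± 0.11). Mx1, an antiviral GTPase gene, had 69.6 and 104.9 CPM at 10 nM against 52.6 and 128 CPM at 0.03 nM, and the groups overlapped. With the 0.03 nM 1 h library of experiment 2 left out it was called higher (0.51, edgeR adjusted p = 0.0262), and without that of experiment 1 it was -0.38 and not called. Stat2, part of the complex that transmits interferon signals, fell by 0.61 ± 0.15. It had 120 and 137 CPM at 10 nM against 145 and 260 CPM at 0.03 nM. No list member was called lower with no experiment block or with the 4 libraries alone, so the call on Stat2 ended in both.

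The list also separated the experiments. Summed over the 35 genes, CPM were 6589 and 7521 at 10 nM against 2960 and 5586 at 0.03 nM, so that the low-dose library of experiment 2 lay close to the high-dose library of experiment 1. The median difference between doses was 0.56 in experiment 1 and 0.02 in experiment 2. At 2 h, 34 of the 35 genes were higher at 10 nM than at 0.03 nM, against 26.2% of all genes, with a median of 2.09. The dose difference was larger at 2 h than at 1 h in 30 of the 35 and smaller in 1, against 11.1% and 12% of all genes.

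The sensing machinery itself was uneven. Of 39 tested Toll-like receptors, co-receptors and adaptors, 21 were higher and 4 lower (17 and 14 with library totals, 19 to 21 and 1 to 2 when any one of the 4 libraries was left out). Tlr4, the receptor for the ligand, had 102.1 and 103.7 CPM at 10 nM against 108 and 112 CPM at 0.03 nM and was not called (-0.10 ± 0.14, edgeR adjusted p = 0.63), but with library totals it was called lower (-0.45, adjusted p = 0.0184). Cd14, its co-receptor, had 3185 and 3233 CPM against 611 and 681.5 CPM (2.31 ± 0.09). More transcript of the co-receptor, and no call of more transcript of the receptor, was thus found at the high dose. Ripk2, the kinase downstream of NOD receptors, rose by 4.07 ± 0.12, the adaptor gene Traf1 by 3.82 ± 0.13 and the kinase gene Irak2 by 2.04 ± 0.09. Among cytokine and chemokine receptors, 14 of 30 were higher and 3 lower, a balance that turned to 8 and 10 with library totals, and to 10 to 12 and 1 to 2 when any one of the 4 libraries was left out. Ccrl2, an atypical receptor that binds chemerin, had 640 and 603 CPM at 10 nM against 15.8 and 23.5 CPM at 0.03 nM (5.0 ± 0.16). Cd40 rose by 4.74 ± 0.18, the death receptor gene Fas by 2.41 ± 0.11 and Il17ra by 2.00 ± 0.08.

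Immediate-early transcription factor genes were higher in 25 of 30 cases and lower in 2. Egr2 had 457 and 442 CPM at 10 nM against 19.4 and 18.8 CPM at 0.03 nM (4.56 ± 0.15), and Egr1 had 217 and 233 CPM against 17.3 and 22.8 CPM (3.50 ± 0.12). Maff, a small MAF factor, rose by 4.85 ± 0.14, Nr4a1, an orphan nuclear receptor, by 3.26 ± 0.14, and Gadd45b by 3.22 ± 0.10. Fos went the other way. This partner of JUN in AP-1 had 165.5 and 187 CPM at 10 nM against 220.5 and 318 CPM at 0.03 nM, without overlap (-0.59 ± 0.09, edgeR adjusted p = 0.00059, but 0.106 with no experiment block). The other member that fell was Klf10, a repressor induced by TGF-beta (-1.16 ± 0.08).

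NF-kB subunits and inhibitors were higher in 17 of 20 genes and lower in 0, with a median of 1.93. Tnfaip3, encoding the ubiquitin-editing inhibitor A20, had 3809 and 3734 CPM at 10 nM against 163 and 222 CPM at 0.03 nM (4.30 ± 0.13). Nfkbia, encoding the inhibitor IkB-alpha, had 1609 and 1595 CPM against 262 and 325 CPM (2.45 ± 0.10). Nfkbib, which encodes IkB-beta and overlaps an antisense gene, rose by 2.76 ± 0.11, and Tnip1, a partner of A20, by 2.69 ± 0.09. Of 22 interferon regulatory factors, STATs and Janus kinases, 12 were higher and 2 lower (6 and 9 with library totals). Jak2 rose by 2.62 ± 0.10, Irf1 by 2.18 ± 0.10, Irf4 by 2.07 ± 0.19 and Stat5a by 1.18 ± 0.09.

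Feedback inhibitors of MAP kinases were higher in 13 of 18 genes and lower in 2. Errfi1, which restrains epidermal growth factor receptors, had 1084 and 1143 CPM at 10 nM against 15.2 and 18.4 CPM at 0.03 nM (6.06 ± 0.10, edgeR adjusted p = 1.16e-10). The MAP kinase phosphatase genes Dusp5, Dusp1 and Dusp2 rose by 4.65 ± 0.18, 3.92 ± 0.19 and 3.86 ± 0.14. The 2 that fell were Spred3, a gene of the Spred family of ERK pathway inhibitors, and Dusp6. Dusp6, the cytoplasmic ERK phosphatase, fell by 1.64 ± 0.17, with 6.22 and 7.14 CPM against 19 and 22.6 CPM. Members of this 1 family therefore moved in opposite directions without overlap of the doses.

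The suppressor of cytokine signalling (SOCS) family and genes of mRNA decay were higher in 15 of 23 cases and lower in 3. Socs3 had 1858 and 1786 CPM at 10 nM against 54.6 and 104 CPM at 0.03 nM (4.57 ± 0.24, not called with the 4 libraries alone, edgeR adjusted p = 0.0612), and its relative Cish rose by 4.15 ± 0.12. Zfp36, which encodes the protein tristetraprolin that binds AU-rich elements and promotes decay of cytokine mRNAs, had 2737 and 2685 CPM against 299 and 408 CPM (2.95 ± 0.11). The endonuclease gene Zc3h12a, encoding Regnase-1, rose by 1.75 ± 0.09, and Btg1, a factor in deadenylation, by 1.88 ± 0.07.

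Letters of the AU-rich kind that tristetraprolin binds were more common in the genes that rose, as a description with no test. The letters TATTTAT were found in 46.6% of the 365 genes at least 4-fold higher that had an annotated 3′ UTR (92.6% of that class), in 26.3% of 171 genes at least 4-fold lower (81.8%), and in 30.1% of 12129 of all genes tested (93.9%). The longest annotated 3′ UTR of each gene was read on the sense strand, from GENCODE M21 on GRCm38. Per 1000 bases of 3′ UTR the motif occurred 0.657, 0.233 and 0.289 times in these classes, with median 3′ UTR lengths of 1110, 1430 and 1160 bases. A match is a description of the letters and not of a site in use. The first occurrence in genes that rose strongly and hold it at least 6 times is printed with its flanks, 5′ to 3′ in DNA letters, with the capitals marking TATTTAT.
Tnf (8 occurrences): cagcccccctcTATTTATatttgcactta
Cxcl1 (6 occurrences): tttgagggtccTATTTATttatgtattta
Cxcl2 (7 occurrences): gagagttcactTATTTATttatctatgta
Ptgs2 (6 occurrences): tctactgaccaTATTTATttatttatgtg

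**Figure D3:**
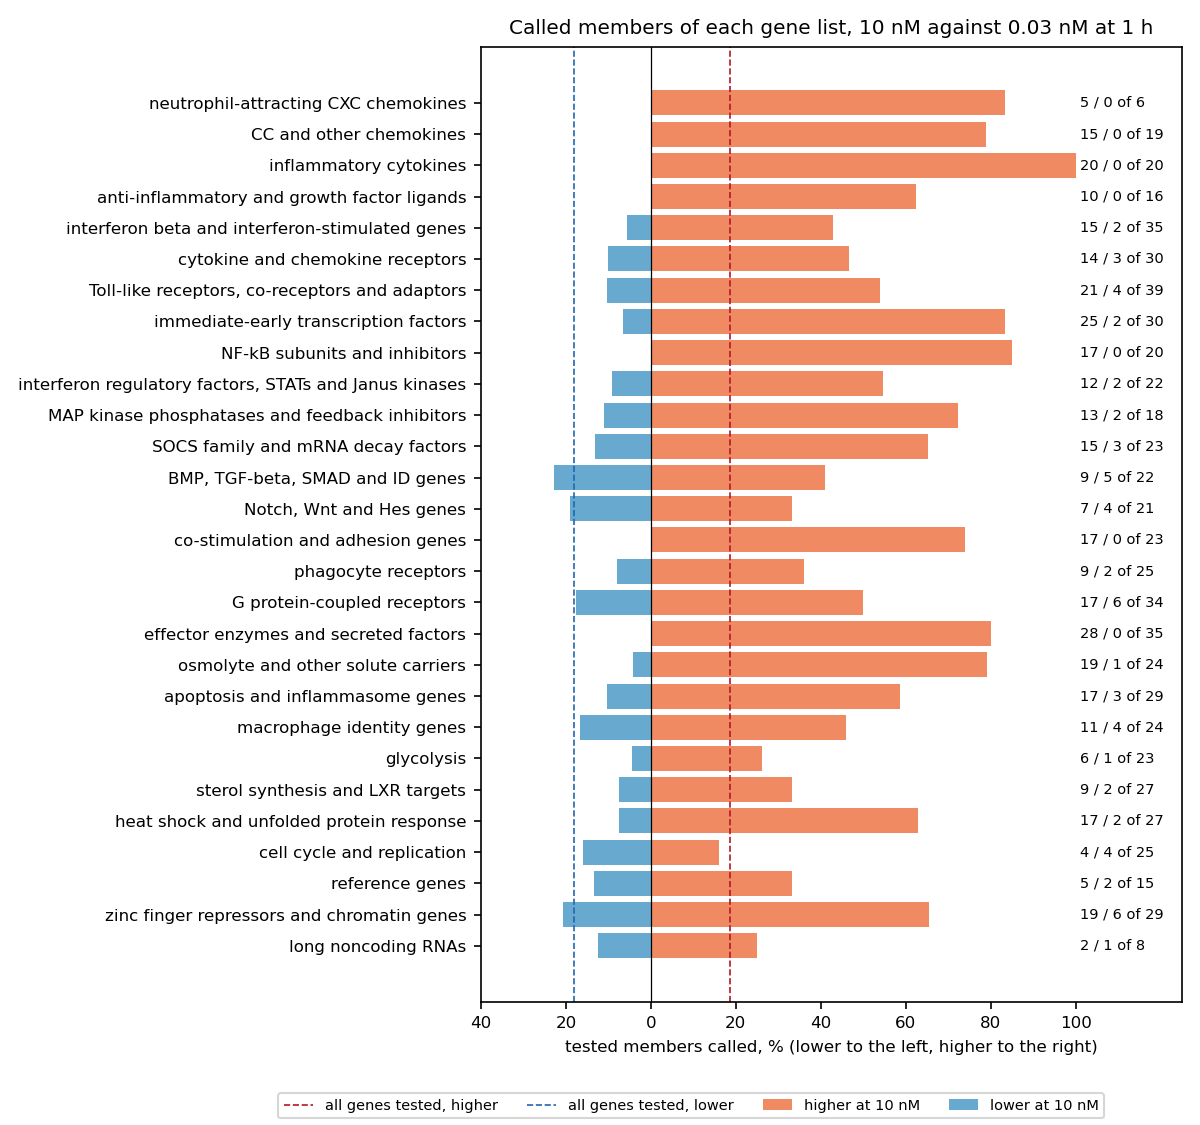
Share of tested members called higher (right) and lower (left) at 10 nM against 0.03 nM at 1 h for 28 gene lists, in percent, with the numbers higher and lower beside each bar. Dashed lines mark the shares over all genes tested, 18.6% higher and 18.1% lower. Inflammatory cytokines reached 20 of 20 higher, cell cycle genes 4 of 25 higher and 4 lower. The count filter favours rises in lists with members nearly silent at 0.03 nM.

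Genes of bone morphogenetic protein (BMP) and TGF-beta signalling included some with more transcript at the low dose than at the high dose. Of 22 tested, 9 were higher at 10 nM and 5 lower (6 and 11 with library totals, 7 and 3 with the 10 nM 1 h library of experiment 1 left out). Smad6 (chr9:63800883-63869866, mm9), an inhibitory SMAD, had 2.54 and 2.14 CPM at 10 nM against 9.52 and 12.8 CPM at 0.03 nM (-2.25 ± 0.21, edgeR adjusted p = 1.07e-05). Untreated cells had 0.881 and 1.13 CPM, so both doses lay above them and the lower dose lay farther. Id1, an inhibitor of basic helix-loop-helix factors and a BMP target, had 4.39 and 5.23 CPM at 10 nM against 5.45 and 9.34 CPM at 0.03 nM (-0.59 ± 0.18, edgeR adjusted p = 0.0278, but 0.106 with no experiment block and 0.0585 by DESeq2). The Id1 call also ended with the 10 nM 1 h library of experiment 1 left out (-0.73), with that of experiment 2 left out (-0.43) and with the 0.03 nM 1 h library of experiment 2 left out (-0.37). Its relative Id3 showed the opposite difference at 1 h, with 329 and 322 CPM at 10 nM against 181 and 223 CPM at 0.03 nM (0.69 ± 0.11). At 2 h Id3 was lower at the high dose, by 2.14. Skil and Tgif1, both repressors of SMAD activity, rose by 2.08 ± 0.16 and 1.25 ± 0.10.

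Some other genes also broke the order of the doses. Neat1, the long noncoding RNA of paraspeckles, had 233 and 286 CPM at 10 nM against 844 and 926 CPM at 0.03 nM (-1.78 ± 0.10), and untreated cells lay between, at 514 CPM on average. Slco4a1, an organic anion transporter gene, had 192 and 152 CPM at 10 nM against 17.8 and 17.8 CPM at 0.03 nM (3.26 ± 0.11), with 59.1 CPM in untreated cells. The first thus exceeded the untreated level at the low dose alone, and the second fell below it at the low dose alone, in both experiments. Fos exceeded it at both doses.

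**Figure D4:**
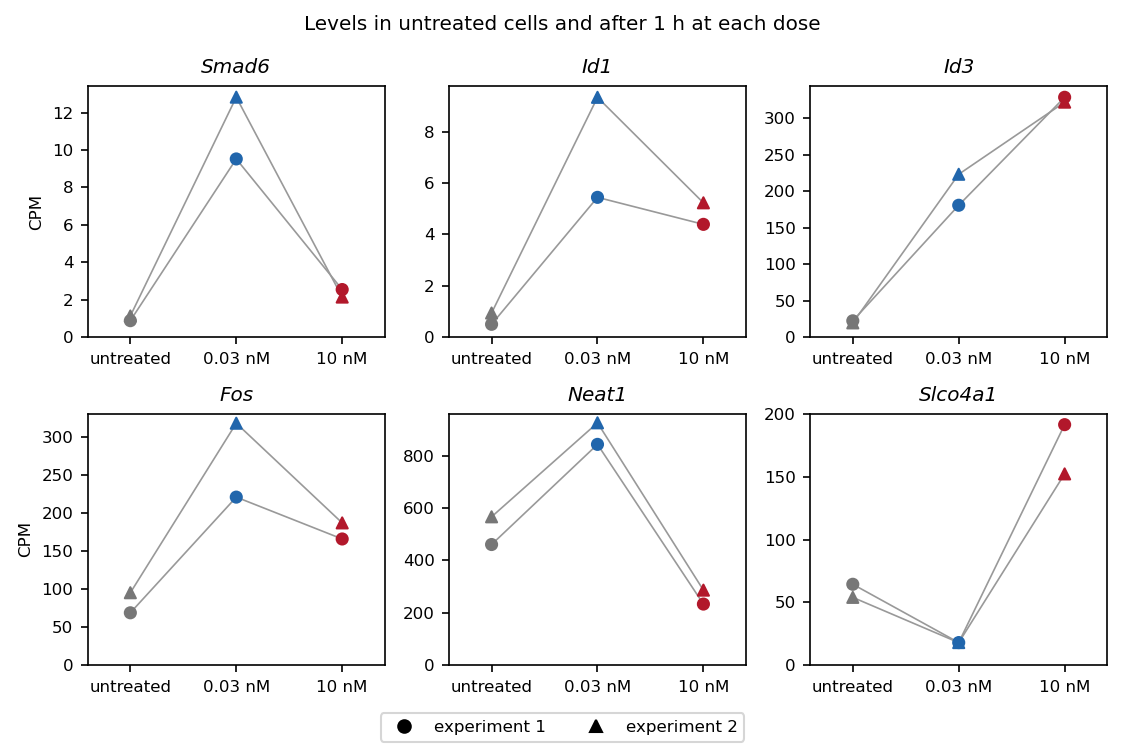
CPM of 6 genes in untreated cells and after 1 h at 0.03 nM and 10 nM (left to right), with 1 symbol per library and lines joining libraries of the same experiment. Smad6, Id1, Fos and Neat1 were highest at 0.03 nM in both experiments, Id3 rose with dose, and Slco4a1 was lowest at 0.03 nM.

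Notch and Wnt genes gave 7 higher and 4 lower of 21 (5 and 7 with library totals), with a median of 0.07. Over all genes tested, 18.6% were higher and 18.1% lower. Jag1, a Notch ligand, had 212 and 232 CPM at 10 nM against 12.4 and 13.6 CPM at 0.03 nM (4.09 ± 0.13), and Rbpj, the DNA-binding partner of Notch, rose by 1.63 ± 0.10. The Wnt receptor genes Fzd1 and Fzd5 rose by 2.30 ± 0.13 and 1.94 ± 0.12. Frat1, which encodes a GSK3-binding protein of Wnt signalling, fell by 2.54 ± 0.26, with 0.896 and 0.872 CPM against 6.27 and 4.17 CPM.

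At the cell surface, co-stimulation and adhesion genes were higher in 17 of 23 cases and lower in 0. Icam1, the ligand of leukocyte integrins, had 2931 and 2826 CPM at 10 nM against 213 and 283 CPM at 0.03 nM (3.54 ± 0.12). Vcam1 rose by 4.91 ± 0.15, Pvr, a ligand of DNAM-1, by 4.37 ± 0.11, and Cd83 by 3.54 ± 0.12. Phagocyte receptors moved less as a group, 9 higher and 2 lower of 25 (8 and 12 with library totals), but included Olr1, the lectin-like receptor for oxidised low-density lipoprotein. Olr1 had 65.6 and 69.9 CPM at 10 nM against 0.145 and 0.719 CPM at 0.03 nM, 156-fold higher (97.6-fold with the 0.03 nM 1 h library of experiment 1 left out, 441-fold without that of experiment 2). Msr1, which encodes a scavenger receptor, rose by 1.26 ± 0.08, and the C-type lectin genes Clec5a and Clec4d by 2.11 ± 0.10 and 1.5 ± 0.08. Of 34 tested G protein-coupled receptors, 17 were higher and 6 lower. Niacr1, the niacin receptor gene, had 39.8 and 41.8 CPM at 10 nM against 1.64 and 2.18 CPM at 0.03 nM (4.42 ± 0.12). Adora2a, the anti-inflammatory adenosine receptor gene, rose by 3.70 ± 0.13 and Gpr85 by 3.23 ± 0.09, while Gpr132 rose by 2.51 ± 0.09.

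Effector enzymes and secreted factors were higher in 28 of 35 cases and lower in 0 (27 and 3 with the 0.03 nM 1 h library of experiment 1 left out). Ptgs2, which encodes the inducible prostaglandin synthase COX-2, had 1148 and 1049 CPM at 10 nM against 5.83 and 11.4 CPM at 0.03 nM (7.02 ± 0.28). Irg1, encoding the enzyme that makes itaconate, had 1960 and 2196 CPM against 17.7 and 57.0 CPM, 60.9-fold higher (40.4-fold with the 0.03 nM 1 h library of experiment 1 left out, 106-fold without that of experiment 2, and not called in the model of 4 libraries, edgeR adjusted p = 0.109). Nos2, the inducible nitric oxide synthase gene, was barely expressed at 1 h, with 2.69 and 4.47 CPM at 10 nM against 0.0482 and 1.03 CPM at 0.03 nM. Its 6.70-fold difference was 3.87-fold with the 0.03 nM 1 h library of experiment 1 left out and 60.9-fold without that of experiment 2. Leaving out the 0.03 nM 2 h library of experiment 1 or of experiment 2 ended its call (edgeR adjusted p = 0.0559 and 0.0564), as did the model of 4 libraries (0.0524). All 3 genes were higher at 10 nM in both experiments.

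Among other effectors, Plat, encoding tissue plasminogen activator, had 36.5 and 37.9 CPM at 10 nM against 0.217 and 0.287 CPM at 0.03 nM (7.18 ± 0.27). Ch25h, whose product makes 25-hydroxycholesterol, had 60.3 and 68.7 CPM against 0.603 and 1.17 CPM (6.18 ± 0.16). The protease genes Adamts4 and Mmp13 were also higher, Adamts4 94.4-fold (156-fold with the 0.03 nM 1 h library of experiment 2 left out) and Mmp13 by 4.28 ± 0.14. Tmem200b, a membrane protein gene, was 80.3-fold higher (150-fold with the 0.03 nM 1 h library of experiment 1 left out), and Gem, a small GTPase gene, rose by 6.08 ± 0.24.

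In the chosen list of osmolyte and other solute carriers, 19 of 24 genes were higher and 1 lower. Over all 207 tested genes with an Slc symbol, a grouping made after the values were seen, 44 were higher (21.3%) and 35 lower (16.9%), near the shares over all genes. Slc7a11, the cystine transporter subunit, had 97.8 and 91.4 CPM at 10 nM against 4.39 and 6.23 CPM at 0.03 nM (4.15 ± 0.16). The glucose transporter gene Slc2a1 had 138 and 137.5 CPM against 31.5 and 30.4 CPM (4.45-fold higher), and Slc2a6 rose by 2.08 ± 0.09. In the glycolysis list, which includes Slc2a1, 6 of 23 genes were higher and 1 lower (3 and 11 with library totals). The 2 isozyme genes that set fructose 2,6-bisphosphate moved apart, Pfkfb3 by 0.77 ± 0.08 and Pfkfb4 by -0.77 ± 0.08. In sterol synthesis and LXR targets, 9 of 27 were higher and 2 lower (7 and 13 with library totals). The medians of the glycolysis and sterol lists were 0.10 and 0.13. Over all genes tested, 18.6% were higher and 18.1% lower.

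Apoptosis and inflammasome genes were higher in 17 of 29 cases and lower in 3. Nlrp3, the inflammasome sensor gene, had 2433 and 2461 CPM at 10 nM against 156.5 and 191 CPM at 0.03 nM (3.82 ± 0.10). The anti-apoptotic Bcl2a1a, Bcl2a1d and Bcl2a1b rose by 5.69 ± 0.14, 5.15 ± 0.12 and 4.21 ± 0.13, though reads may be divided uncertainly among these near-identical copies. Bmf, a pro-apoptotic BH3-only gene, had 4.51 and 4.78 CPM at 10 nM against 58.9 and 47.9 CPM at 0.03 nM (-3.51 ± 0.14, edgeR adjusted p = 1.6e-08). Heat shock and unfolded protein response genes were higher in 17 of 27 cases and lower in 2. Ppp1r15a, a phosphatase subunit of the integrated stress response, rose by 4.25 ± 0.13, the autophagy receptor gene Sqstm1 by 2.27 ± 0.10 and Txnrd1, a thioredoxin reductase gene, by 1.98 ± 0.07. Hspa1b, whose reads cannot be told apart from those of its twin Hspa1a, rose by 4.74 ± 0.16.

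Macrophage identity genes split into 11 higher and 4 lower of 24 (6 and 12 with library totals). Tfec, a transcription factor of the MITF family in macrophages, had 309 and 292 CPM at 10 nM against 29.5 and 28 CPM at 0.03 nM (3.38 ± 0.09), and Ets2 rose by 2.73 ± 0.12. Cebpa, a master factor of the myeloid lineage, had 45.0 and 41.2 CPM against 137.5 and 120 CPM (-1.58 ± 0.08). Cell cycle and replication genes were near the background, 4 higher and 4 lower of 25 (2 and 18 with library totals, 2 and 3 with the 10 nM 1 h library of experiment 1 left out). The largest difference in the list was that of Mki67 (chr7:142881471-142908062, mm9), the gene of the proliferation marker Ki-67, with 706.5 and 699 CPM at 10 nM against 139 and 131 CPM at 0.03 nM (2.38 ± 0.12). Top2a, a proliferation gene chosen after its values were seen, rose by 0.29 ± 0.09. Ccnd2 rose by 1.73 ± 0.19, and Ccnd1 and the inhibitor gene Cdkn1b fell by 0.76 ± 0.09 and 0.68 ± 0.09. Of 15 reference genes, 5 were higher and 2 lower (1 and 8 with library totals). Of these, 2 to 4 were higher when any one of the 4 libraries was left out, with 2 when it was that of 10 nM in experiment 2. Gapdh, also chosen after its values were seen, had 477 and 483 CPM at 10 nM against 492 and 460 CPM at 0.03 nM.

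In the list of chromatin regulators and zinc finger repressors, 19 of 29 genes were higher and 6 lower. Kdm6b, a demethylase of histone H3 lysine 27, had 729 and 706 CPM at 10 nM against 25.8 and 31.7 CPM at 0.03 nM (4.64 ± 0.16). The transcription factor genes Cited2 and Nfil3 rose by 2.34 ± 0.09 and 2.25 ± 0.11, and Sertad2 by 1.87 ± 0.08. The large family of zinc finger genes with a Zfp symbol behaved otherwise. This grouping by symbol was made after the values were seen. Of 322 such genes tested, 214 were lower at 10 nM (66.5%) and 22 higher (6.83%), with a median of -1.07. The number lower was 184 to 191 when any one of the 4 libraries was left out. Zkscan, Zscan and Zbtb genes gave 31 lower and 7 higher of 50. At 2 h, 207 of the 322 were lower and 32 higher, against 27.7% and 26.2% of all genes.

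Among genes with a mean of 1 log2 CPM or more over the 4 libraries, the largest falls came from zinc finger genes and from a few metabolic and signalling genes. Zkscan14 (chr5:145955815-145962751, mm9) had 0.376 and 0.634 CPM at 10 nM against 10.5 and 8.51 CPM at 0.03 nM (-4.20 ± 0.27, edgeR adjusted p = 7.37e-07). Zfp60 had 0.520 and 0.555 CPM against 9.52 and 6.30 CPM (-3.85 ± 0.25). Of the 20 largest falls at that level, 10 genes carried a Zfp symbol and a number, with means of 5.50 to 10.6 CPM at the low dose. Zfp61 was 6.37-fold lower and Zfp455 6.16-fold lower, or 11.5-fold and 10.1-fold with the 10 nM 1 h library of experiment 2 left out. Zinc finger genes of this kind often encode DNA-binding repressors, but the targets of most of them are not known.

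Txnip (chr3:96361880-96365780, mm9), which encodes an inhibitor of thioredoxin and of glucose uptake, had 39.0 and 52.4 CPM at 10 nM against 732 and 653 CPM at 0.03 nM (-3.92 ± 0.13, edgeR adjusted p = 6.29e-09). Untreated cells had 789 and 786 CPM, close to the low dose. An antisense gene shares 606 of its 2801 exonic bases. Arrdc3, a relative of Txnip in the alpha-arrestin family, had 5.96 and 6.05 CPM at 10 nM against 64.7 and 50.9 CPM at 0.03 nM (-3.26 ± 0.14). Both arrestins therefore fell to a small part of their low-dose level in each experiment. Ccnj, a cyclin gene, and Trmt12, a tRNA modification gene, fell by 2.56 ± 0.21 and 2.64 ± 0.23.

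Genes that differed strongly in either direction were compact. The median span from first to last exon was 12900 bases for genes at least 4-fold higher and 9390 bases for genes at least 4-fold lower, against 20700 bases for all genes tested. They had a median of 5.5 and 4 exons, against 9 over all genes. A span of at least 100000 bases was found in 3.81% of the higher and 0.478% of the lower genes, against 11.1% of all. Among all 2400 higher genes, whatever their fold, the median span was 27300 bases, against 13800 bases in the 2336 lower genes. These are descriptions of the deposited gene models, with no test.

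Several microRNA genes were called, and in polyadenylated libraries their reads come from primary transcripts over the hairpin, not from mature microRNAs. They were chosen after their values were seen, except Mir155. Mir155, the hairpin gene of the inflammatory microRNA miR-155, had 103 and 133 reads at 10 nM against 0 and 3 at 0.03 nM, a ratio of 90.4 (95% counting interval 30.6 to 442). Its fitted fold, which rests on these few reads, was 82.7, or 44.3 with the 0.03 nM 1 h library of experiment 1 left out and 946 without that of experiment 2. Mir221 had 415 and 367 reads against 17 and 40 (3.98 ± 0.30), and Mir222 had 44 and 36 reads against 5 and 3 (3.48 ± 0.60), so the doses did not overlap in any of them. Mir223, a myeloid microRNA gene, had 51 and 45 reads at 10 nM against 120 and 147 at 0.03 nM (-1.27 ± 0.23). Their main mature products are shown 5′ to 3′ from RefSeq, build GRCm38.p6, with the seed (bases 2 to 8) in capitals.
mmu-miR-155-5p: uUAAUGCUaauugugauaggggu
mmu-miR-221-3p: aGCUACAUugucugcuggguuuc
mmu-miR-222-3p: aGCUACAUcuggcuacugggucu
mmu-miR-223-3p: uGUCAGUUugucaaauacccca
miR-221-3p and miR-222-3p share the seed GCUACAU, and their genes lie side by side on the minus strand of chromosome X. The host gene Mir17hg rose by 1.77 ± 0.13.

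The 2 h libraries, which are separate from those at 1 h, show how long these differences lasted. At 2 h, 3386 genes were higher (26.2%) and 3573 lower (27.7%) at 10 nM than at 0.03 nM. Of the genes higher at 1 h, 1925 were also higher at 2 h, which is 80.2% of the 1 h list and 56.9% of the 2 h list, and 74 were lower. Of the genes lower at 1 h, 1800 were also lower at 2 h, 77.1% of the 1 h list and 50.4% of the 2 h list, and 105 were higher. The dose difference itself changed with time in 2985 genes, becoming more positive at 2 h in 1433 (11.1%) and more negative in 1552 (12%).

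Among immediate-early genes the dose difference was more negative at 2 h in 21 of 30 and more positive in 2. Nr4a1 (chr15:101097277-101105225, mm9) had 393.5 and 361 CPM at 10 nM against 33.5 and 46.2 CPM at 0.03 nM at 1 h. At 2 h it had 11.5 and 15.3 CPM at 10 nM against 19.5 and 18.8 CPM at 0.03 nM. Its dose difference was 3.26 at 1 h and -0.52 at 2 h, both called, a change of -3.78 (edgeR adjusted p = 3.12e-06). Egr2 differed by 4.56 at 1 h and 0.99 at 2 h. Plk3, a stress kinase gene, differed by 1.18 at 1 h and -2.22 at 2 h. Frat1 fell further, to 0 and 0.0684 CPM at 10 nM against 2.85 and 2.58 CPM at 0.03 nM at 2 h.

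Other genes gained a dose difference. Ccnj turned from lower to higher at the high dose, with a difference of -2.56 at 1 h and 1.56 at 2 h. The interferon-inducible genes Mx1 and Iigp1 were not called at 1 h and differed by 4.04 and 3.37 at 2 h. At 1 h Iigp1 was called lower with library totals (-0.62) and with the 0.03 nM 1 h library of experiment 1 left out (-0.61, edgeR adjusted p = 0.0284), and differed by 0.17 without that of experiment 2. Slfn1, a regulator of T cell quiescence, differed by -1.16 at 1 h and 2.87 at 2 h. Its 1 h call ended in 11 of the 20 alternative settings, and with the 0.03 nM 1 h library of experiment 2 left out its difference was -0.36. Il15ra, which presents interleukin 15, differed by 0.52 and 4.18, and its 1 h call ended in 14 of the 20 settings. Nos2 differed by 2.74 at 1 h and 6.5 at 2 h. Inflammatory cytokines mostly kept their difference, 19 of 20 being higher at 2 h as well, but it was smaller at 2 h in 9 of them and larger in 3.

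**Figure D5:**
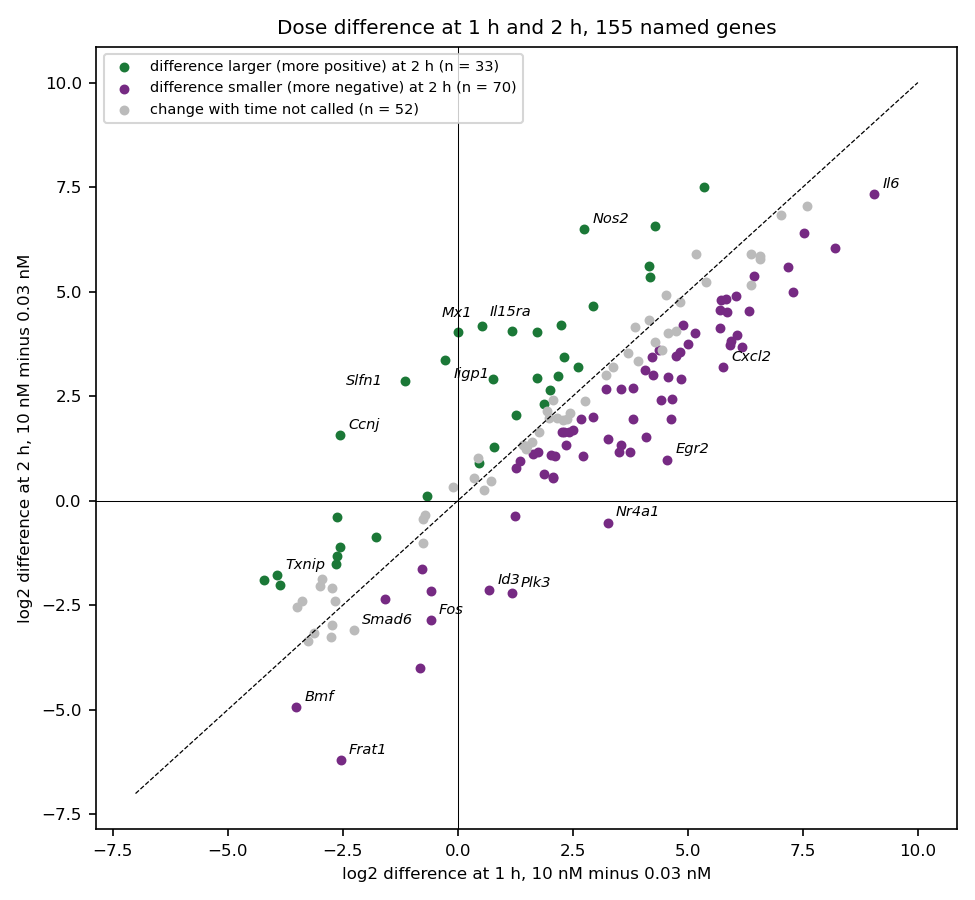
Log2 dose difference (10 nM minus 0.03 nM) at 1 h (horizontal) and 2 h (vertical) for the 155 named genes, with equal values on the dashed line. The difference was called more positive at 2 h in 33 genes and more negative in 70, and no change was called in 52. Nr4a1, Id3 and Plk3 changed sign from higher to lower at 10 nM, and Ccnj and Slfn1 from lower to higher.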

How the data were processed

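The 10 libraries are polyadenylated RNA from mouse bone marrow-derived macrophages, 2 for each of 5 groups, made with a strand-marking kit per the labels' protocols. The authors deposited a table of raw counts per gene and a table of log2 values from the regularised logarithm (rlog) of DESeq2, with samples named in the columns per the file headers. The tools listed in the submitters' processing notes are featureCounts 1.4.5-p1 (Subread), TopHat2 2.0.11, DESeq2 and bcl2fastq 2.15.0.4, with the build mm9. How strand was set in counting is not given in the sources used here.

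From the deposited counts, genes were kept by filterByExpr of edgeR 4.0.16 in R 4.3.3 over the 5 groups, scaled by TMM and fitted with glmQLFit and glmQLFTest, with all 10 libraries sharing 1 estimate of spread and the experiment as a block. P-values were adjusted by Benjamini and Hochberg over 12918 genes and called below 0.05. The dose difference was taken at 1 h, at 2 h and as the 2 h minus the 1 h difference. Tables and figures were made with pandas 2.3.3 and matplotlib 3.10.9. The fit was also run on simulated counts with few changed genes, as many up as down, which does not test the scaling. The pairing comes from the experiment number in the labels. Deviations from the group means correlated between same-numbered libraries by -0.107 to 0.452 over the 10 pairs of groups, with a median of 0.198, and by 0.229 between 10 nM and 0.03 nM at 1 h.

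Named genes were the 20 largest rises and 20 largest falls at a mean of at least 1 log2 CPM, the 4 called genes of smallest p in a list, or all where a list had 5 or fewer, the 5 largest changes of the dose difference with time in each direction, and a panel of 26 genes. Some genes that this rule picks are not reported here. The comparison, lists and panel were chosen with earlier results of these data known. Where a gene had 1 to 3 reads at the low dose, an exact 95% interval for the ratio of counts is given, and where it had 0, a bound at 3 reads over the group; both cover counting error only. Alternatives were other scalings, filters and thresholds, no block, limma 3.58.1, DESeq2 1.42.0, the 4 libraries alone, the rlog values, and leaving out each library.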

Additional observations from a re-analysis of the deposited data

Results flagged for a closer look

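The genes below had a dose difference (10 nM minus 0.03 nM) that changed between 1 h and 2 h by edgeR's test of the change itself, with adjusted p from 3.12e-06 to 0.0343. Values are the log2 difference at 2 h minus that at 1 h. Among the largest changes over all genes, the difference became more negative for Nr4a1 (-3.78), Frat1 (-3.66), Egr2 (-3.57) and Plk3 (-3.4). It became more positive for Ccnj (4.12), Mx1 (4.03), Slfn1 (4.02), Il15ra (3.66) and Iigp1 (3.64). Mx1 and Iigp1 were not called at 1 h.

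In the panel of 26 genes, 17 changed, 15 to a more negative and 2 to a more positive difference. Over all genes tested the shares were 12% and 11.1%. The panel was chosen with earlier results of these data known. Among cytokine genes the change was -1.72 for Il6, -1.61 for Tnf, -1.12 for Il1b, -1.12 for Il12b and -2.15 for Ifnb1. Among chemokine genes it was -2.13 for Cxcl1, -2.59 for Cxcl2, -1.27 for Ccl3 and -1.0 for Ccl4. It was -2.27 for Fos, -2.35 for Egr1, -1.57 for Id1, -2.83 for Id3, -2.21 for Irg1 and -0.66 for Cd14. The difference became more positive for Ccl5, by 1.70, and for Nos2, by 3.76.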

How the results depend on the processing

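Library totals in place of TMM gave 1231 genes higher and 6762 lower at 1 h, 1486 of them at least 2-fold lower, so that 15.4% of calls were higher against 50.7% with TMM. By construction TMM holds the bulk of genes near no difference. Scaling by library totals makes no such assumption, and the median of all genes was then -0.37. Library totals gave Pf4 -0.001446 and Mx1 -0.3483, and called Tlr4 and Iigp1 lower. On the authors' rlog values, which draw low counts together, limma found 493 genes at least 2-fold higher and 237 at least 2-fold lower. At an adjusted p below 0.01, 1520 genes were lower and the dose difference changed with time in 1809. Without the replicate block, 2320 genes were higher and 2238 lower, and 95.5% of the calls were shared. Mx1 was then -0.05223, and the named genes Fos, Id1, S100a9, Slfn1 and Il15ra were no longer called. Leaving out 1 library in turn gave 1595 to 3375 genes higher, 1401 to 3129 lower and 1904 to 4512 with a dose difference that changed with time. In those fits Mx1 lay between -0.3847 and 0.51, and it was -0.00646 with the 10 nM 1 h library of experiment 2 left out, while Iigp1 lay between -0.6135 and 0.168. The causes were not tested. DESeq2 gave 2322 higher and 1998 lower, limma-voom 2460 and 2339, and the 4 libraries alone 2999 and 2872. With 2 libraries a group, the spread rests on few degrees of freedom, and at low-dose levels of a few reads the folds of single genes are imprecise.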

Other observations

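A few genes, chosen after their values were seen, differed at least 20-fold between the 2 libraries at 10 nM and 1 h with at least 200 reads in the larger. Nov, which encodes the matricellular protein CCN3, had 41932 reads in experiment 1 and 15 in experiment 2, and 8 to 83 reads in the other 8 libraries. Gadl1, a decarboxylase gene, had 919 and 0 reads, and Ugt2b35, a glucuronosyltransferase gene, had 809 and 0. No gene met this rule in the 2 libraries at 0.03 nM and 1 h. Nov was not called between the doses (edgeR adjusted p = 0.159).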
